A study of Mus musculus with 14 samples.

Results

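The late phase of embryoid body (EB) differentiation was examined in the mouse embryonic stem cell (ESC) line that expresses an shRNA against Dis3l2 (shDIS3L2), in the 4 libraries of d6, d8, d10 and d12 among the 14 libraries of the series. The libraries were chosen by their labels of line and day. The question was which genes went on rising or falling after d6 in the knockdown EBs, on each of the 3 later days against d6 and as a trend over the 4 days. The ESCs of both lines had been kept with LIF and 2i and were then differentiated without them, in serum, first in hanging drops and then in suspension. The control line (shLacZ) expresses an shRNA against LacZ, and its 4 libraries of the same days serve only for comparison. Each line and day has 1 library. A knockdown line is a single cell line with a single shRNA, so the libraries do not stand for other lines or cultures, and no source used here says whether the line is 1 clone.

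DIS3L2 is a cytoplasmic exoribonuclease that degrades RNAs to whose ends uridines have been added by terminal uridylyl transferases. In EBs, ESCs leave the pluripotent state and form a mixture of cell types that resembles parts of the early embryo. The outer layer becomes primitive endoderm, whose visceral part secretes plasma proteins and whose parietal part lays down a thick basement membrane of laminin and type IV collagen. The inner cells pass through states like the epiblast and the primitive streak and form mesoderm, from which blood, vessels, heart muscle and fibroblast-like mesenchyme arise. Since the RNA is from whole EBs, a rise or fall can reflect the number of cells of a type or the amount of RNA per cell, and these cannot be told apart.

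The 4 libraries of shDIS3L2 held 10610122, 19653485, 21115319 and 10679024 reads on genes, in the order of the days, so that d6 and d12, the ends of the series, are of like depth. A count of 0 allows up to 3 reads, and this 3-count floor corresponds to 0.283 CPM (reads scaled to a common library total) at d6 and 0.281 CPM at d12. A fold against a library without a read is given as a lower bound against this floor, and a fold of a single gene carries a 95% Clopper-Pearson interval, both of which cover counting error only. Mitochondrially encoded genes took between 4.24% and 5.99% of the reads. Dis3l2 (ENSMUSG00000053333, chromosome 1, 86703808 to 87050095 of GRCm38, forward strand), the gene targeted by the shRNA, was at 13.1, 19.6, 18.3 and 14.9 CPM at d6, d8, d10 and d12, against 23.8, 20.2, 19.2 and 19.7 CPM in shLacZ. Its level was therefore lowest at d6, and at d8 and d10 it lay within 1 CPM of shLacZ, so that the counts do not show a lower level on these days, and the names shDIS3L2 and knockdown EBs stand here for the libraries labelled so. The study reported the knockdown in the ESCs of this line, which carry an Osr1-GFP reporter, by western blot and qRT-PCR. Values are given below in the order d6, d8, d10 and d12, and since CPM is not divided by gene length, levels are compared between libraries and not between genes. The fitted log2 change of Dis3l2 from d6 to d12 was 0.01 (SE 0.37, adjusted p = 0.989).

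In the knockdown EBs more genes were higher than lower on each later day than at d6, and fewer genes differed at each later step. A gene was counted when its CPM differed at least 3-fold between 2 libraries and reached 1 CPM in 1 of them, among protein-coding genes. A gene with almost no reads at d6 enters only through the later library, so the number compared in a list can grow with the day. Against d6, 861 of 13244 genes were higher at d8 (6.5%) and 194 were lower (1.46%). At d10, 1512 genes were higher (11.1%) and 299 lower (2.2%). The numbers were 1996 (14.4%) and 279 (2.01%) at d12, and all 3 comparisons share the library of d6. Between neighbouring days, 376 genes were at least 3-fold higher at d10 than at d8 (2.78%) and 103 lower (0.76%). From d10 to d12 the numbers were 225 (1.62%) and 45 (0.324%). In shLacZ, 836 genes were at least 3-fold higher at d12 than at d6 (6.25%) and 143 lower (1.07%). With 1 library per line and day, these counts have no replicate check and no p-value, and the difference between the lines in them was not tested. The minimum level moved them most, and with a minimum of 5 CPM 1094 genes were at least 3-fold higher at d12 than at d6 and 175 lower.

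**Figure D1:**
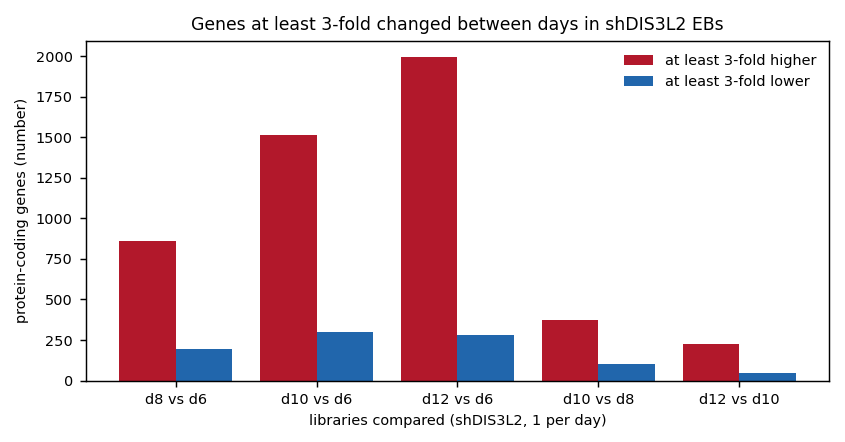
Number of protein-coding genes (vertical axis) at least 3-fold higher (red) or lower (blue) between 2 shDIS3L2 libraries, for each later day against d6 and for the steps d8 to d10 and d10 to d12. The bars for higher genes stand at 861, 1512 and 1996 against d6 and fall to 376 and 225 for the last steps.

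A smaller part of the genes went one way throughout. Of 14102 protein-coding genes that reached 1 CPM, 2872 were higher in each library than in the one before (20.4%) and 1181 were lower (8.37%). Among them, 1229 were at least 3-fold higher at d12 than at d6 (8.72%) and 134 at least 3-fold lower (0.95%). The same counts in shLacZ were 459 (3.36%) and 46 (0.336%) of 13672 genes. The split between rising and falling depends on the scaling, since library totals leave the median gene 0.19 higher on the log2 scale at d12 than at d6 and TMM scaling 0.07. With TMM, 2236 genes were higher and 1861 lower at every step, and 1072 and 164 did so with at least a 3-fold change.

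To test the trend, the counts of the 4 libraries were fitted on the day with edgeR's quasi-likelihood test, and the slope is given as the fitted log2 change from d6 to d12 with its standard error (SE). Of 17035 genes tested, 253 rose (1.49%) and 97 fell (0.569%) at a Benjamini-Hochberg adjusted p under 0.05, and 4704 had an unadjusted p under 0.05 (27.6%). Among these 4704 genes, 2552 had a positive and 2152 a negative slope. Where unadjusted and DESeq2 counts of a list are given below, they stand beside the totals over all genes given here. In shLacZ, 298 rose (1.87%) and 47 fell (0.295%) of 15941 tested. The days of 1 series stand in for replicates here, so the p-values measure the spread around a straight line over these days and not between cultures. The number of calls rests on each library, with 1128 genes called without d6, 91 without d8 and 0 without d10 or without d12, where 2315 and 3747 genes had an unadjusted p under 0.05. DESeq2 called 2087 of 17809 genes over the 4 libraries, 1326 rises and 761 falls.

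The 12 protein-coding genes with the largest fitted rise, among the 192 that passed the test, went up at every step and reached 10 CPM, include Ctss (cathepsin S, a lysosomal protease), Fcrls (an Fc receptor-like gene of myeloid cells), Hk3 (a hexokinase of myeloid cells), Adgre1 (the macrophage surface protein F4/80), Mpeg1 (a pore-forming protein of macrophages) and Myo1f (a leukocyte myosin). Tpbpa, a marker of the placental spongiotrophoblast, was at 0, 0.102, 1.7 and 24.8 CPM at d6, d8, d10 and d12, which at d12 is at least 87.8-fold higher than at d6 (adjusted p = 0.0238). Nearly all of its rise came in the last step, and in shLacZ it was at 3.27 CPM at d12. Gkn2 and Gkn1 encode gastrokines, proteins secreted by the lining of the stomach. Gkn2 was at 0.377, 5.9, 24.4 and 133 CPM (fitted change 7.25, SE 0.47, adjusted p = 0.024), and Gkn1 at 0, 5.34, 18.1 and 84.6 CPM (adjusted p = 0.0474). Each of the 2 gastrokine genes was higher in each library than in the one before, in shLacZ as well, where Gkn2 reached 369 CPM and Gkn1 229 CPM at d12. The mucin-like gene Dpcr1 was at 0.0942, 0.254, 2.75 and 23.5 CPM and reached 39.5 CPM in shLacZ, and its fold at d12, from 1 read at d6, was 249-fold (95% interval 44.4 to 9889). Thbs2 encodes thrombospondin-2, a matrix glycoprotein of connective tissue. It was at 0.471, 4.94, 43.7 and 93.2 CPM (fitted change 7.03, SE 0.89, adjusted p = 0.0446) and stayed at or under 2.18 CPM in shLacZ. The protease inhibitor gene Serpina3n, whose reads may be shared with near copies in its gene cluster, went from 0.471 CPM at d6 to 1.93, 23.4 and 95.6 CPM (fitted change 7.95, SE 0.57, adjusted p = 0.0254).

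A part of the pluripotency genes, which act in or mark the ESC state, rose after d6 in the knockdown EBs. Of the 24 pluripotency genes tested, 9 rose and 0 fell, against 1.49% and 0.569% of all genes, and 16 of 24 were at least 3-fold higher at d12 than at d6, against 14.4% of all genes compared, and 1 was lower. The list's median log2 fold was 0.77 on d8, 1.55 on d10 and 2.63 on d12, against 0.14 at d12 over all genes tested. In shLacZ the median over the list was 0.03 at d12, and 2 of the genes rose. The list had 18 of its 24 genes at their lowest level of the 4 days at d6. With d8 left out, 4 of the genes passed the test, with d6 left out 13, and the fit with the 8 libraries of both lines called 14 rises and 2 falls. Over the 4 libraries 16 had a positive and 4 a negative slope at an unadjusted p under 0.05, and DESeq2 called 15 rises and 4 falls. These genes and the lists were described with earlier results of these data known, so their direction is a description of the 4 libraries.

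Nanog (ENSMUSG00000012396, chromosome 6, 122707489 to 122714633 of GRCm38, forward strand), a homeobox factor that holds ESCs in the naive state, was at 6.97, 10.5, 29.4 and 50.4 CPM at d6, d8, d10 and d12. Each library was above the one before, and the level at d12 was 7.22-fold (95% interval 5.66 to 9.34) that of d6 (fitted change 2.92, SE 0.31, adjusted p = 0.0367). In shLacZ Nanog stayed between 36.6 and 43.8 CPM, so that the knockdown libraries began below all control libraries at d6 and ended above them at d12. Zfp42, the Rex1 gene of naive ESCs, was at 5.18, 10.99, 26.1 and 44.01 CPM (fitted change 3.03, SE 0.26, adjusted p = 0.0321), and at 65.6, 57.8, 50.2 and 65.4 CPM in shLacZ. Pou5f1, which encodes OCT4, was at 14.2, 18.5, 41.6 and 86.2 CPM (fitted change 2.59, SE 0.28, adjusted p = 0.0376). It was higher in shLacZ on each of the 4 days, at 117, 163, 218 and 143 CPM. Before d6, in the same line, Nanog had been at 174 CPM and Pou5f1 at 886 CPM at d4, so that d6 was a low point from which both came back only in part.

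The other 6 genes of the list that rose are Klf4 and Klf5, which encode Kruppel-like factors of the ESC network, the growth factor genes Fgf4 and Gdf3, the chromatin-bound factor gene Utf1 and the F-box gene Fbxo15, a target of OCT4 and SOX2. Klf4 was at 11.7, 30.6, 55.1 and 98.2 CPM at d6, d8, d10 and d12 (fitted change 2.87, SE 0.26, adjusted p = 0.0329) and rose in shLacZ as well, from 43.8 to 158 CPM. Utf1 went from 0.66 CPM, 7 reads, at d6 to 11.1 CPM at d12 (fitted change 3.98, SE 0.38, adjusted p = 0.035). Fbxo15, Klf5, Fgf4 and Gdf3 had fitted changes between 1.92 and 3.47. Esrrb, at 3.49, 3.71, 14.5 and 27.2 CPM, had a fitted change of 3.17 (SE 0.51, adjusted p = 0.0575) and did not pass, nor did Dppa3 (Stella), with 0.377 CPM at d6 and 4.87 CPM at d12. Some genes of the list with many reads had lower levels at d12 than at d6. Lin28a, an RNA-binding protein gene of ESCs and the epiblast, was at 320.2, 126, 94.5 and 115 CPM (fitted change -1.58, SE 0.46, adjusted p = 0.119). Trim71 was at 159 CPM at d6 and 61.5 CPM at d12, and Tbx3 at 157 and 60.4 CPM, and neither passed the test. The summed level of the list was 910.1 CPM at d6 and 915 CPM at d12.

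**Figure D2:**
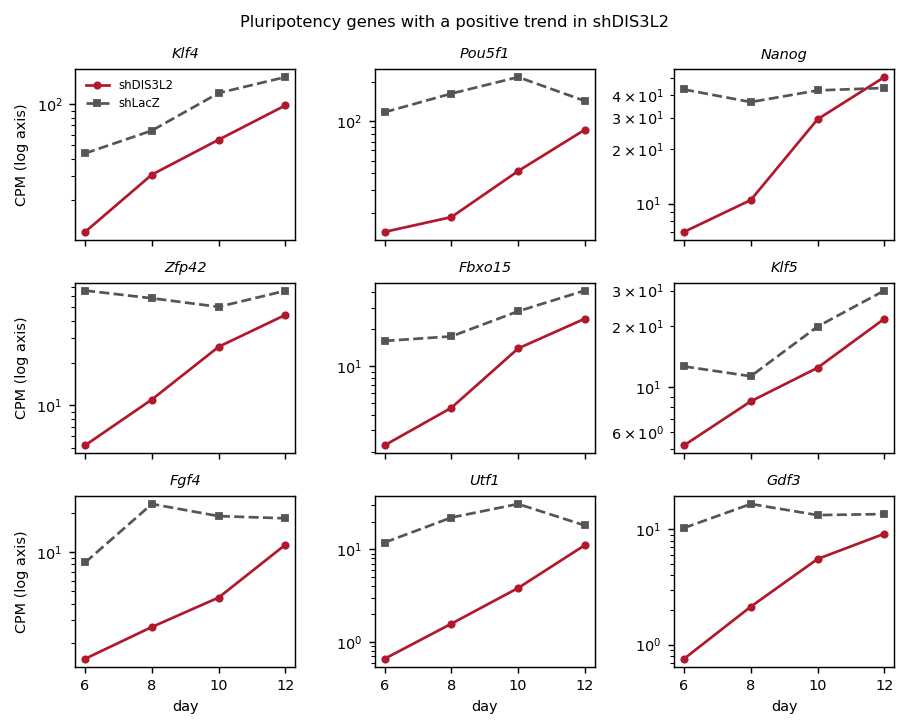
Levels in CPM (vertical axis, logarithmic) by day (horizontal axis) of the 9 pluripotency genes with a positive trend, in shDIS3L2 (red circles) and shLacZ (grey squares), with 1 library per point and no error bars. The red lines climb from d6 to d12 in each panel, and the Nanog line passes from 6.97 to 50.4 CPM while the control line stays between 36.6 and 43.8 CPM.

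The promoters of Nanog and Zfp42, whose genes rose together, are shown because both hold the core of the octamer bound by OCT4. RefSeq promoters (250 bases before to 50 after the start, GRCm38.p6) were held for 15 of the 24 pluripotency genes. The octamer core ATGCAAA, on either strand, was in the promoters of 3 of the 15, Nanog, Sox2 and Zfp42, and of 5.24% of all 27025 genes. Of these 3, Sox2 is not among the 9 genes of the list that rose, and a link between the letters and the rise was not tested. A gene counts when any of its promoters holds the letters. The letters CATTGT, to which SOX factors bind, were in 4 of the 15, Pou5f1, Nanog, Esrrb and Lin28a, and in 14.3% of all genes. In Nanog both lie side by side without overlap. Capitals mark these letters, as read on the gene's strand, so that they appear as their reverse complement, and a match is a description of the letters and not of binding. The Nanog sequence, from the downstream of 2 RefSeq starts, is chr6:122707315-122707614 on the forward strand, and that of Zfp42 is chr8:43306960-43307259 on the reverse strand.
Nanog: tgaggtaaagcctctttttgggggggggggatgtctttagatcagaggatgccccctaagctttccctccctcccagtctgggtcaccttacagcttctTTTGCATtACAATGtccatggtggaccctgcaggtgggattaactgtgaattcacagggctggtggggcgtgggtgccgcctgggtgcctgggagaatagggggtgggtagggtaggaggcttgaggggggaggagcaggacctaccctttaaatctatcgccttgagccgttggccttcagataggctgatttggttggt
Zfp42: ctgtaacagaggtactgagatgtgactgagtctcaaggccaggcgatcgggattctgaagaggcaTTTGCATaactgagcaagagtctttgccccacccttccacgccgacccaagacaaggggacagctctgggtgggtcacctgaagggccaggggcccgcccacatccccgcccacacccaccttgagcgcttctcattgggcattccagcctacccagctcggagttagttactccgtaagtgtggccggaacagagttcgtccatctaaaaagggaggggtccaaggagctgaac

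Of 17 epiblast and primitive streak genes tested, 3 rose and 0 fell, against 1.49% and 0.569% of all genes. Among these genes, 9 had a positive and 2 a negative slope at an unadjusted p under 0.05, and DESeq2 called 3 rises and 1 fall, and 10 of 19 compared were at least 3-fold higher at d12 than at d6, against 14.4% of all genes, and 2 lower. None of the rises was called without d8. Lefty1 and Lefty2, which encode inhibitors of Nodal, went from 0.848 to 12.5 CPM (fitted change 3.88, SE 0.42, adjusted p = 0.0382) and from 1.7 to 16.8 CPM (fitted change 3.34, SE 0.40, adjusted p = 0.0409) between d6 and d12. In shLacZ they were nearly level at those days, with 7.22 and 8.83 CPM for Lefty1 and 15.7 and 16.2 CPM for Lefty2. The third was the Notch ligand gene Dll1, at 1.6, 2.95, 4.69 and 9.46 CPM at d6, d8, d10 and d12 (fitted change 2.39, SE 0.35, adjusted p = 0.0499). Wnt3, a ligand that starts the primitive streak, was at 24.6, 1.17, 0.663 and 1.59 CPM, which did not pass the test (fitted change -4.67, SE 1.47, adjusted p = 0.132). Nearly all of that difference lay between d6 and d8. The de novo DNA methyltransferase gene Dnmt3b was at 107, 40.96, 40.2 and 82.5 CPM and did not pass. Germ cell genes were mostly higher at d12 than at d6. Of 17 tested, 1 rose and 0 fell, against 1.49% and 0.569% of all genes, 9 had a positive and 0 a negative slope at an unadjusted p under 0.05, and DESeq2 called 4 rises and 0 falls. At d12, 10 of 14 compared were at least 3-fold higher than at d6, against 14.4% of all genes, and 0 lower. Members under 1 CPM at d6 could enter this count only through d12. Only 7 were compared at d8, and 3 of the 20 members had no read at d6. The median log2 fold was 2.35, against 0.14 over all genes tested and -0.47 for the list in shLacZ. The gene that rose was Kit, a receptor tyrosine kinase gene that other progenitors also express, at 81.7, 129, 209 and 322 CPM (fitted change 1.88, SE 0.14, adjusted p = 0.0292), and it rose in shLacZ to 469.6 CPM. Dazl, a germ cell RNA-binding protein gene, went from 3 reads or 0.283 CPM at d6 to 6.74 CPM at d12 (23.8-fold, 95% interval 7.84 to 118, adjusted p = 0.0565), while in shLacZ it was at 0.902 and 0.893 CPM.

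Most genes of macrophages had few or no reads at d6 and were highest at d12. At d6, 7 of the 18 macrophage and leukocyte markers had no read and their summed level was 18.4 CPM. This sum grew to 24.7 CPM on d8, 118 CPM on d10 and 304 CPM on d12, and 17 of the 18 were highest at d12. In shLacZ the sum was 18.9, 37.2, 39.9 and 68.7 CPM. Against d6, 3 markers of 7 compared were at least 3-fold higher at d8, 14 of 17 at d10 and 16 of 18 at d12, against 6.5%, 11.1% and 14.4% of all genes. The 7 without a read at d6 could enter these counts only through the later library. Between d8 and d10, 14 were at least 3-fold higher, against 2.78%. The median log2 fold at d12, with genes without a read set to the floor, was 5.22. Of 18 tested, 3 rose, Csf1r, Adgre1 and Fcer1g, against 1.49% of all genes. With a positive slope, 17 had an unadjusted p under 0.05, against 27.6% of all genes in either direction. The fit with the 8 libraries called 15, DESeq2 13 and the fit without d6 15.

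Csf1r, the receptor gene for the growth factor on which macrophages depend, was at 0.848, 4.73, 14.7 and 44.7 CPM at d6, d8, d10 and d12, and the level at d12 was 52.7-fold (95% interval 27.5 to 116) that of d6 (fitted change 5.26, SE 0.37, adjusted p = 0.0254). It was higher at each step, and in shLacZ it was at 3.01, 6.51, 10.2 and 11.5 CPM. Adgre1 (ENSMUSG00000004730, chromosome 17, 57358686 to 57483529 of GRCm38, forward strand) was at 0, 0.509, 6.87 and 24.3 CPM, at least 86.1-fold higher at d12 than at d6 (adjusted p = 0.0397). The complement genes C1qa, C1qb and C1qc had no read at d6 and were at 10.96, 32.2 and 17.4 CPM at d12. Between d8, with 0, 0 and 2 reads, and d10, with 51, 232 and 118 reads, they became detectable together. Their adjusted p lay between 0.0566 and 0.0792 and did not pass. Spi1, which encodes the myeloid factor PU.1, was at 0.0942, 0.153, 2.08 and 3.37 CPM. Mpeg1 was at 0, 1.37, 12.8 and 48.97 CPM and Ctss at 0, 0.0509, 2.13 and 15.2 CPM, which at d12 is at least 173-fold and at least 53.7-fold higher than at d6. Mpo, a gene of immature granulocytes, was the exception, with 13 reads at d6 and none at d10 and d12. Mrc1, the mannose receptor gene, which endothelium also expresses, was at 8.2 CPM already at d6 and at 21.8 CPM at d12 (fitted change 1.47, SE 0.51, adjusted p = 0.155).

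**Figure D3:**
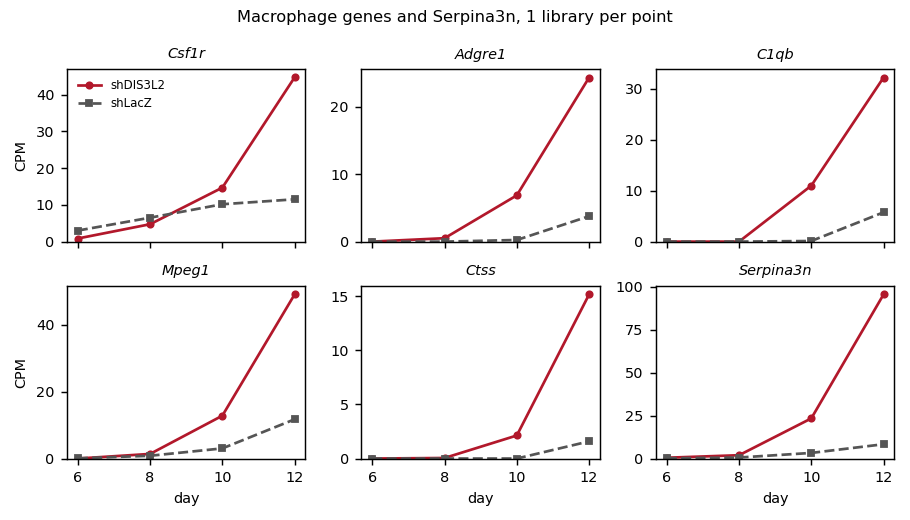
Levels in CPM (vertical axes, each from 0) by day (horizontal axis) of the macrophage genes Csf1r, Adgre1, C1qb, Mpeg1 and Ctss and of Serpina3n, in shDIS3L2 (red circles) and shLacZ (grey squares), 1 library per point. The red lines lie at or under 4.73 CPM at d8 and reach between 15.2 and 95.6 CPM at d12.

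Genes of the basement membrane rose in part, at a near even pace. Of 21 tested, 6 rose and 0 fell, against 1.49% and 0.569% of all genes, with a median log2 fold of 1.64 at d12 over the list, against 0.14 over all genes tested. Of the 21, 12 had a positive and 1 a negative slope at an unadjusted p under 0.05, and DESeq2 called 12 rises and 1 fall. In shLacZ 8 of 19 rose, against 1.87% of all genes, and the median of the list was 1.08. Col4a1 (ENSMUSG00000031502, chromosome 8, 11198423 to 11312826 of GRCm38, reverse strand) and Col4a2 encode the common chains of type IV collagen and lie head to head. Col4a1 was at 1052, 2361, 4007 and 7404 CPM at d6, d8, d10 and d12 (fitted change 2.65, SE 0.21, adjusted p = 0.0303), and Col4a2 at 519, 1334, 2319 and 4426 CPM (fitted change 2.90, SE 0.24, adjusted p = 0.0316). The laminin genes Lama1, Lamb1 and Lamc1 encode the 3 chains of the main embryonic laminin. Lama1 was at 238, 699, 1829.9 and 3816 CPM (fitted change 3.91, SE 0.24, adjusted p = 0.024). Lamb1 went from 469 to 2670.1 CPM (fitted change 2.40, SE 0.18, adjusted p = 0.0255) and Lamc1 from 552 to 3141 CPM (fitted change 2.49, SE 0.23, adjusted p = 0.0342). The remaining one, Lama3, an epithelial laminin chain gene, had 5 reads or 0.471 CPM at d6 and was at 8.62 CPM at d12 (adjusted p = 0.0479). The other 5 were higher in each library than in the one before, in shLacZ too, where Col4a1 reached 16487 CPM and Lama1 7092 CPM at d12. Other members of the list had flat or lower levels. Lama5, at 139.6 CPM at d6 and 142 CPM at d12, and Hspg2 (perlecan), at 576 and 729 CPM, had fitted changes of -0.11 (SE 0.15, adjusted p = 0.644) and 0.22 (SE 0.18, adjusted p = 0.461), and Lama4, a vessel laminin gene, one of -2.45 (SE 0.49, adjusted p = 0.0747).

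Some enzymes that modify collagen rose as well. Of 24 genes for collagen processing, 15 had a positive and 0 a negative slope at an unadjusted p under 0.05. DESeq2 called 14 rises and 0 falls. In edgeR 5 rose and 0 fell, against 1.49% and 0.569% of all genes, and in shLacZ 8 rose, against 1.87%. The 5 that rose are the prolyl hydroxylase genes P4ha1, P4ha2 and P3h3 and the lysyl hydroxylase genes Plod1 and Plod3. P4ha2 was at 49.6, 143, 262 and 359.8 CPM at d6, d8, d10 and d12 (fitted change 2.70, SE 0.39, adjusted p = 0.0499). P4ha1 was at 121, 198, 299 and 362 CPM (fitted change 1.5, SE 0.21, adjusted p = 0.0489), and Plod3 at 86.2, 132, 180.4 and 255 CPM (fitted change 1.43, SE 0.15, adjusted p = 0.0367). The collagen chaperone gene Serpinh1 was at 676, 1175, 1544 and 1732 CPM, higher at each step, without passing the test (fitted change 1.23, SE 0.27, adjusted p = 0.0808). With d8 left out, 0 of these genes and 5 of the basement membrane genes passed, and the fit with the 8 libraries called 11 and 9.

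Some factors of the endoderm rose too. Of 14 endoderm transcription factor genes tested, 3 rose and 0 fell, against 1.49% and 0.569% of all genes. None was called without d8, 7 had a positive and 1 a negative slope at an unadjusted p under 0.05, and DESeq2 called 4 rises and 1 fall, and in shLacZ 4 rose. Gata4 was at 98.5, 127, 190.0 and 235 CPM at d6, d8, d10 and d12 (fitted change 1.20, SE 0.16, adjusted p = 0.0473), Sox17 at 18.5, 20.9, 37.1 and 72.9 CPM (fitted change 1.93, SE 0.28, adjusted p = 0.0499) and Foxa2 at 7.73, 14.3, 19.9 and 35.2 CPM (fitted change 1.99, SE 0.23, adjusted p = 0.0402). On each of the 4 days they were higher in shLacZ, with 400.0, 109 and 71.3 CPM at d12. Gata6, at 60.8, 128, 142 and 115 CPM, did not pass, and the caudal factor gene Cdx2, at 55.3 CPM at d6, was at 6.74 CPM at d12 (fitted change -3.32, SE 0.72, adjusted p = 0.0811). The plasma proteins of visceral endoderm were mostly higher at d12 than at d6, with varied courses. Of 16 tested, 2 rose and 0 fell, against 1.49% and 0.569% of all genes. With a positive slope 7 had an unadjusted p under 0.05, with a negative one 0, and DESeq2 called 8 rises and 0 falls. At d12, 14 of 19 compared were at least 3-fold higher than at d6, against 14.4% of all genes, and 0 lower. Of the 21 members 5 had no read at d6 and could enter this count only through the later library. The median log2 fold was 2.71, and 2.52 in shLacZ. The 2 that rose are Fga (a fibrinogen chain) and Trf (transferrin), which were at 4.96 and 3.56 CPM at d12 and had 1 read each at d6. Others were highest at d8 or d10. Afp, the fetal albumin-like protein gene, was at 8.01, 82.3, 468 and 414 CPM (fitted change 5.89, SE 1.49, adjusted p = 0.0974), and Apob at 135, 499, 675 and 379 CPM (fitted change 1.34, SE 1.02, adjusted p = 0.431). Cubn, an endocytic receptor gene of visceral endoderm, was highest at d8, at 508 CPM. Alb was not tested, as 3 of its libraries were at or under 0.379 CPM, and it was at 20.6 CPM at d12 (220 reads), at least 72.9-fold higher than at d6, and at 1.29 CPM in shLacZ.

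Col1a1, Col1a2 and Col3a1, the main collagens of connective tissue, and the proteoglycan genes Lum and Dcn were already far above d6 at d8. None of the 11 fibrillar collagen genes passed the trend test of edgeR, where 8 had an unadjusted p under 0.05 with a positive slope and DESeq2 called 6, although 8 of 11 were at least 3-fold higher at d12 than at d6, against 14.4% of all genes, and 5 of 10 at d8, against 6.5%. Col3a1 was at 208, 4647, 7502 and 7939 CPM at d6, d8, d10 and d12, 22.3-fold (95% interval 21.4 to 23.3) higher at d8 than at d6, and nearly level between d10 and d12 (fitted change 4.08, SE 1.87, adjusted p = 0.23). Col1a2 was at 70.6, 859, 2229.9 and 3113 CPM (fitted change 5.01, SE 1.24, adjusted p = 0.0945) and Col1a1 at 306, 1246, 3048 and 3539 CPM (fitted change 3.48, SE 0.68, adjusted p = 0.0722). In shLacZ the 3 genes were at 493, 125 and 146 CPM at d12, each below its level in the shDIS3L2 library of d8. Summed over the list, shLacZ was at 225, 1403, 1519 and 1005 CPM, highest at d10. The sum in shDIS3L2 was 1053, 8212, 14668 and 16313 CPM, so the lines differed already at d6. The small leucine-rich proteoglycans, which bind collagen fibrils, gave 0 calls of 8 and 5 at an unadjusted p under 0.05 in edgeR, and 5 calls in DESeq2. Their median log2 fold was 1.11 at d8 and 4.06 at d12, with 7 of 8 at least 3-fold higher at d12, against 14.4% of all genes. At d10, 5 were at least 3-fold higher than at d8, against 2.78%. Of the 15 members 7 had no read at d6, and these could enter the count against d6 only through the later library. Lum (lumican) was at 7.45, 423, 644 and 332 CPM and Dcn (decorin) at 2.73, 99.7, 371 and 324 CPM, each highest at d10, and Fmod (fibromodulin) at 0.0942, 5.65, 51.3 and 58.5 CPM. Lox, the lysyl oxidase gene that cross-links collagen, had 2 reads at d6, and was at 42.8 CPM at d10 and 42.3 CPM at d12. Among the elastic fiber genes 1 of 17 rose, against 1.49% of all genes. It is Ltbp4, a binding protein gene of latent TGF-beta, at 9.61, 29.2, 64.8 and 110.5 CPM (fitted change 3.36, SE 0.33, adjusted p = 0.0359). The growth factor binding protein gene Igfbp3 was at 18.9, 47.1, 73.8 and 125 CPM (fitted change 2.50, SE 0.26, adjusted p = 0.0367), and at 24.9 CPM at d12 in shLacZ.

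**Figure D4:**
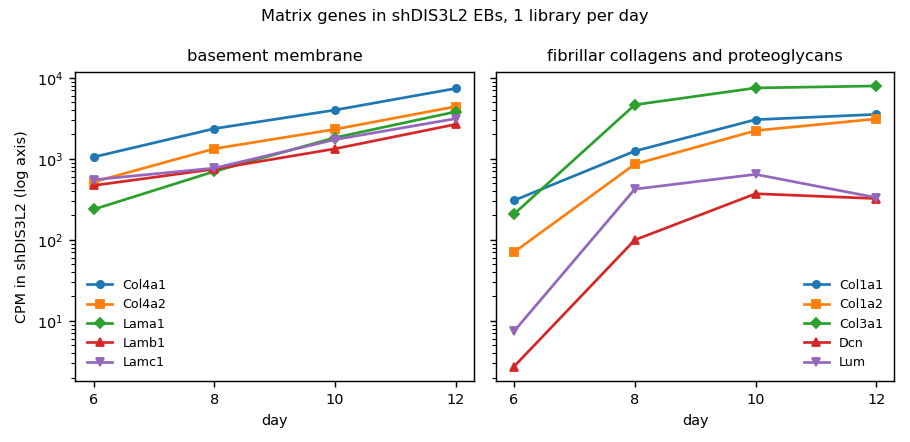
Levels in CPM (vertical axis, logarithmic, shared) by day (horizontal axis) in the 4 shDIS3L2 libraries for basement membrane genes (left) and for fibrillar collagens with the proteoglycan genes Dcn and Lum (right), 1 library per point. The left lines climb at a near even pace to between 2670.1 and 7404 CPM, while the right lines make most of their climb between d6 and d8 and change by less from d10 to d12.

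Most blood and heart genes were highest in the middle of the series. Of 19 erythroid and blood markers, 16 were highest at d8, 12 of 19 compared were at least 3-fold higher at d8 than at d6, against 6.5% of all genes, and 14 at least 3-fold lower at d10 than at d8, against 0.76%. The embryonic globin gene Hbb-y was at 7.63, 589, 51.9 and 13.4 CPM at d6, d8, d10 and d12, 77.1-fold (95% interval 62.01 to 97.2) higher at d8 than at d6. Hbb-bh1, expressed early in primitive erythroid cells, was at 126, 453, 24.6 and 11.1 CPM, and Hba-x, the embryonic alpha-like globin gene, at 13.9, 239, 15.8 and 8.24 CPM. Hba-a1 and Hba-a2 are near-identical copies whose reads cannot be told apart with certainty, and peaked at 113 and 199.9 CPM at d8. In shLacZ the peak was on the same day, with 239 CPM of Hbb-y and 219.5 CPM of Hba-x. Slc4a1, the anion exchanger gene of red cells, was at 19.9 CPM at d8 and at 1.97 CPM at d12. None of the 18 tested passed the straight-line trend test of edgeR, 1 had an unadjusted p under 0.05, and DESeq2 called 0 rises and 2 falls.

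The promoter of Hba-a1 is shown for this group, since it holds the letters GATAAG, to which GATA factors bind. They were in the promoters of 8 of the 15 blood markers with a RefSeq promoter, among them Hba-a1, Hba-a2 and Klf1. Of all 27025 genes with a promoter, 8.58% held them. None of the 15 pluripotency genes with a promoter held these letters in this window. The sequence is chr11:32283422-32283721 of GRCm38.p6 on the forward strand, with the letters in capitals, and the match is a description of the letters.
Hba-a1: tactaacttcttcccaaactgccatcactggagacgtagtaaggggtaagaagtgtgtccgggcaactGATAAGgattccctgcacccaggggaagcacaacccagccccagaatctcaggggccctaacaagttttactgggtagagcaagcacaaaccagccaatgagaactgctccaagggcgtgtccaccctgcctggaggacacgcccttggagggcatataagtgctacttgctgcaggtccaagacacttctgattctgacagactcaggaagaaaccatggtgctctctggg

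Of 22 endothelial markers, 1 rose, against 1.49% of all genes. It is Sox17, which is also an endoderm factor gene. Of the markers, 7 were at least 3-fold lower at d10 than at d8, against 0.76% of all genes. None fell, but 2 had a positive and 10 a negative slope at an unadjusted p under 0.05, and DESeq2 called 2 rises and 7 falls, and edgeR without d6 called 2 rises and 9 falls. The list's median log2 fold was -0.89 at d12, against 0.42 in shLacZ. Kdr, the main VEGF receptor gene of vessels, was at 134, 262, 182 and 98.98 CPM at d6, d8, d10 and d12, highest at d8, and Tek, the angiopoietin receptor gene, at 71.3, 47.4, 16.5 and 15.8 CPM (fitted change -2.51, SE 0.38, adjusted p = 0.0509). The decoy VEGF receptor gene Flt1 was higher at d12 than at d6, at 182 and 70.4 CPM (fitted change 1.39, SE 0.33, adjusted p = 0.0915). Cdh5, the VE-cadherin gene, was lowest at d10, at 18.6 CPM, and highest at d12, at 55.4 CPM. Of the 20 cardiac sarcomere genes, 15 were highest at d10. Tnnt2, the cardiac troponin T gene, was at 3.68, 20.9, 38.9 and 22.7 CPM, Myh6, a cardiac myosin gene, at 2.83, 13.03, 35.99 and 32.3 CPM and Actc1, cardiac actin, at 7.54, 28.4, 44.5 and 24.2 CPM. Their level at d12 was above that of d6 in each case, and none of the 17 cardiac genes tested passed the trend test of edgeR, where 2 had an unadjusted p under 0.05 with a positive slope and DESeq2 called 4 rises. The heart factor gene Nkx2-5 stayed under 1 CPM in all 4 libraries. Mybpc3, a thick filament gene, had 9 reads at d6 and was at 51.6 CPM at d10 and 28.8 CPM at d12, and in shLacZ it was also high (63.9 CPM at d10), where Tnnt2 stayed at or under 5.95 CPM.

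The 12 protein-coding genes of largest fitted fall, among the 87 that passed the test, went down at every step and reached 10 CPM, were led by Tdo2 and Spin2c. Hand1 (ENSMUSG00000037335, chromosome 11, 57828705 to 57832818 of GRCm38, reverse strand), a basic helix-loop-helix factor gene of lateral and extraembryonic mesoderm, was at 299, 157, 62.5 and 23.9 CPM at d6, d8, d10 and d12 (fitted change -3.78, SE 0.22, adjusted p = 0.024). Each library was below the one before, whereas in shLacZ the level turned up again, at 151, 52.5, 28.3 and 65.9 CPM. Tdo2, an enzyme gene of tryptophan breakdown, was at 53.7, 13.8, 5.11 and 2.25 CPM (fitted change -4.76, SE 0.32, adjusted p = 0.024), and at 15.2 CPM at d12 in shLacZ. The spindlin gene Spin2c, which has close copies on the X chromosome, was at 291, 64.6, 31.4 and 14.3 CPM (fitted change -4.40, SE 0.37, adjusted p = 0.0316). Apela, the gene of a peptide that binds the apelin receptor and guides early mesoderm, went from 50.05 to 4.4 CPM (fitted change -3.80, SE 0.54, adjusted p = 0.0489). Tmem88 and Hey2 act in heart formation, the first as an inhibitor of Wnt signalling and the second downstream of Notch. Tmem88 was at 57.2, 25.6, 14.97 and 6.37 CPM (fitted change -3.17, SE 0.23, adjusted p = 0.0254) and Hey2 at 37.04, 14.2, 6.01 and 4.96 CPM (fitted change -3.14, SE 0.39, adjusted p = 0.0442). Phlda2, an imprinted gene that limits placental growth, was at 84.6, 28.4, 10.4 and 8.15 CPM (fitted change -3.63, SE 0.40, adjusted p = 0.0394) and Ctla2a, a protease inhibitor gene with a close copy, at 43.8, 10.5, 8.81 and 2.72 CPM (fitted change -3.79, SE 0.51, adjusted p = 0.0473). Both were low at d12 in shLacZ too, at 3.77 and 5.36 CPM. The synaptic vesicle protein gene Svop went from 12.4 CPM at d6 to 1.78 CPM at d12.

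Itga4, an integrin subunit gene through which cells bind fibronectin and VCAM1, was at 193, 68.03, 33.2 and 18.2 CPM at d6, d8, d10 and d12 (fitted change -3.51, SE 0.24, adjusted p = 0.024), against 32.5, 6.33, 4.6 and 7.74 CPM in shLacZ. Hapln1, which links hyaluronan to proteoglycans, was at 104, 37.4, 21.8 and 11.5 CPM (fitted change -3.23, SE 0.26, adjusted p = 0.0303). Cdh2, the N-cadherin gene, went from 242 to 88.9 CPM (fitted change -1.59, SE 0.18, adjusted p = 0.0394). Of the 23 limb and lateral plate factors, 2 fell, among them Hand1, and 0 rose, against 0.569% and 1.49% of all genes, while 3 had a positive and 9 a negative slope at an unadjusted p under 0.05, and DESeq2 called 2 rises and 7 falls. Tbx20, a heart factor gene, was at 185, 153, 108 and 48.6 CPM (fitted change -1.97, SE 0.33, adjusted p = 0.061), just short of the threshold. Of 28 TGF-beta and BMP genes, 1 rose and 3 fell, against 1.49% and 0.569% of all genes, while 8 had a positive and 9 a negative slope at an unadjusted p under 0.05, and DESeq2 called 6 rises and 5 falls. The ligand genes Tgfb2, Bmp4 and Bmp5 fell, from 147, 91.99 and 63.2 CPM at d6 to 47.01, 34.6 and 12.8 CPM at d12 (fitted changes -1.72, -1.59 and -2.65 with SEs of 0.16, 0.18 and 0.36 and adjusted p of 0.0329, 0.0394 and 0.0472), and the receptor gene Tgfbr2 rose, at 17.8, 46.8, 107 and 145 CPM (fitted change 2.96, SE 0.37, adjusted p = 0.0446).

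Further falls were called in the epithelial, Hox, smooth muscle and imprinted lists. Over all genes, 1.49% rose and 0.569% fell, and the calls in these lists are few. Krt8 and Krt18, the keratin pair of simple epithelia, fell from 449 and 535 CPM at d6 to 191 and 217 CPM at d12 (fitted change -1.44, SE 0.20, adjusted p = 0.0489, and -1.51, SE 0.20, adjusted p = 0.0472), and both have processed copies that can share reads. The other 23 epithelial genes did not pass, and over the list 7 had a positive and 3 a negative slope at an unadjusted p under 0.05, and DESeq2 called 5 rises and 2 falls. Among those that did not pass is Cdh1 (E-cadherin), at 175, 197, 187 and 198 CPM at d6, d8, d10 and d12. Of 33 Hox genes tested, 3 had a positive and 8 a negative slope at an unadjusted p under 0.05, and DESeq2 called 1 rise and 6 falls, while the fit of 8 libraries called 1 rise and 7 falls. In edgeR 1 Hox gene fell, Hoxb7, from 4.24 to 0.281 CPM (fitted change -4.19, SE 0.55, adjusted p = 0.0469). Hoxb6, at 12.6, 1.12, 0.521 and 0.468 CPM, missed the threshold (fitted change -5.66, SE 1.03, adjusted p = 0.0676), and the posterior genes Hoxa10, Hoxa11 and Hoxa13 were at 15.3, 12.5 and 17.8 CPM at d6 and 31.7, 18.9 and 23.6 CPM at d12, where shLacZ had 1.79, 0.694 and 2.08 CPM. None of the 32 Wnt genes passed the test of edgeR, 6 had an unadjusted p under 0.05, and DESeq2 called 2 rises and 1 fall. The Wnt target gene Lef1 was at 104, 19.7, 6.35 and 10.4 CPM and the ligand gene Wnt5a at 211, 44.3, 16.1 and 26.5 CPM, both lowest at d10. Of 16 smooth muscle genes, 2 had a positive and 5 a negative slope at an unadjusted p under 0.05, and DESeq2 called 3 rises and 5 falls. In edgeR, Mylk (myosin light chain kinase) rose, at 2.36, 9.16, 19.3 and 48.6 CPM (fitted change 4.01, SE 0.33, adjusted p = 0.0316), and Tpm1 (tropomyosin) fell, at 1501, 745, 543 and 417 CPM (fitted change -1.92, SE 0.24, adjusted p = 0.0437), while Acta2 peaked at d8, at 1838 CPM. Of 19 imprinted genes read from the paternal allele, 0 rose and 1 fell, and 1 had a positive and 6 a negative slope at an unadjusted p under 0.05, and DESeq2 called 0 rises and 4 falls. Of 16 read from the maternal allele, 0 rose and 2 fell, and 1 had a positive and 5 a negative slope at an unadjusted p under 0.05, and DESeq2 called 1 rise and 3 falls. Igf2, a fetal growth factor gene, was at 4835, 7496, 7636 and 6808 CPM (fitted change 0.33, SE 0.33, adjusted p = 0.535), while Mest fell from 2376 to 812 CPM (fitted change -1.61, SE 0.22, adjusted p = 0.0472) and Grb10 from 959 to 476 CPM (fitted change -1.09, SE 0.16, adjusted p = 0.0499).

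Groups of basic cell functions gave no call, which says little, as only 1.49% of all genes rose and 0.569% fell. No gene of the cell cycle, sterol synthesis, ribosomal protein, SRP, unfolded protein response, mitochondrial or RNA decay lists passed the trend test of edgeR. Genes with an unadjusted p under 0.05 and a positive or negative slope numbered 1 and 15 of 30 for the cell cycle, 1 and 13 of 23 for sterol synthesis and 0 and 16 of 43 for ribosomal proteins. Over all genes the numbers were 2552 and 2152 of 17035. DESeq2 called 5, 7 and 6 falls and no rise in these 3 lists. The corresponding numbers at an unadjusted p under 0.05 were 1 and 2 of 9 for the SRP, 4 and 1 of 22 for the unfolded protein response, 0 and 0 of 13 for mitochondrial genes and 1 and 5 of 22 for RNA decay, with 1, 2, 0 and 0 rises and 0, 0, 0 and 1 falls in DESeq2. Mki67, a marker of dividing cells, was at 432, 481, 417 and 386 CPM at d6, d8, d10 and d12 (fitted change -0.32, SE 0.18, adjusted p = 0.305). Hmgcs1, an early enzyme gene of sterol synthesis, was at 613, 243, 221 and 247 CPM, with most of the difference between d6 and d8 (fitted change -1.37, SE 0.43, adjusted p = 0.134). Hspa5 (BiP), the chaperone gene of the endoplasmic reticulum, was at 983, 1051, 1039.7 and 1054 CPM (fitted change -0.02, SE 0.16, adjusted p = 0.932). The glucose transporter gene Slc2a1 was at 1259.9, 509, 302 and 299.7 CPM (fitted change -2.20, SE 0.38, adjusted p = 0.0632). In the interferon and MHC list, 11 of 23 genes had a positive and 0 a negative slope at an unadjusted p under 0.05. DESeq2 called 8 rises and 0 falls. In edgeR 2 of 23 rose, against 1.49% of all genes. They are the antigen presentation genes B2m, at 75.1, 104, 156 and 190.0 CPM (fitted change 1.27, SE 0.17, adjusted p = 0.0472), and Tapbp, at 18.5, 27.1, 47.5 and 69.95 CPM (fitted change 1.86, SE 0.18, adjusted p = 0.036).

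Further groups held single calls. Of 17 bone and cartilage genes, 2 rose and 1, Hapln1, fell, against 1.49% and 0.569% of all genes. These shares stand beside the other lists of this paragraph too. Pth1r, the receptor gene of parathyroid hormone and its related peptide, which parietal endoderm expresses as well, was at 26.9, 94.5, 163 and 264 CPM at d6, d8, d10 and d12 (fitted change 3.03, SE 0.43, adjusted p = 0.0489). The signaling protein gene Ihh was at 12.4, 24.6, 34.4 and 49.5 CPM (fitted change 1.80, SE 0.25, adjusted p = 0.0482). Both were higher in shLacZ on each of the 4 days, where Pth1r reached 392 CPM at d12. Among 21 cell cycle inhibitor genes, 1 rose, Btg1, at 34.02, 41.2, 71.2 and 106 CPM (fitted change 1.61, SE 0.20, adjusted p = 0.0432). Of the 21, 8 had a positive and 2 a negative slope at an unadjusted p under 0.05, and DESeq2 called 3 rises and 2 falls. The lists of matrix proteases and inhibitors, skeletal muscle, neural, nephron, ER calcium handling and glycolysis genes held no call of edgeR. With a positive and with a negative slope at an unadjusted p under 0.05 there were 8 and 0 of 21 protease genes, 0 and 1 of 2 skeletal muscle genes, 3 and 2 of 13 neural genes, 7 and 1 of 14 nephron genes, 5 and 1 of 24 calcium handling genes and 8 and 2 of 25 glycolysis and hypoxia genes. DESeq2 called 6, 0, 0, 3, 2 and 6 rises and 0, 1, 1, 1, 1 and 2 falls in them. Over all genes, 2552 and 2152 of 17035 had a positive and a negative slope at an unadjusted p under 0.05.

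The genes of kidney development and calcium signaling that the study singled out on these samples, a choice that is not independent of them, were also followed. None of the 15 renal genes tested passed the trend test of edgeR, 8 had a positive slope at an unadjusted p under 0.05 and DESeq2 called 8 rises, while 10 of 15 were at least 3-fold higher at d12 than at d6, against 14.4% of all genes. Ptn, a growth factor gene, was at 4.71, 217, 387 and 265 CPM at d6, d8, d10 and d12, with most of the difference between d6 and d8 (fitted change 3.97, SE 2.47, adjusted p = 0.345). Osr2 had 1 read at d6 and was at 5.34 CPM at d12 (56.6-fold, 95% interval 9.76 to 2276). Of the 8 calcium genes, none passed, 4 had a positive and 1 a negative slope at an unadjusted p under 0.05, and DESeq2 called 2 rises and 0 falls. Pkd1 and Pkd2, the genes of polycystic kidney disease, were at 86.9, 108, 125 and 145 CPM (fitted change 0.62, SE 0.14, adjusted p = 0.0891) and at 59.5, 84.1, 119 and 124 CPM (fitted change 1.0, SE 0.22, adjusted p = 0.0813). The regucalcin gene Rgn went the other way over the days, at 4.9, 2.49, 2.13 and 1.59 CPM (fitted change -1.66, SE 0.43, adjusted p = 0.0998). The study reported higher expression of the calcium genes in knockdown than in control cells. That is a comparison of the lines, whereas the values here follow the days within the knockdown line.

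**Figure D5:**
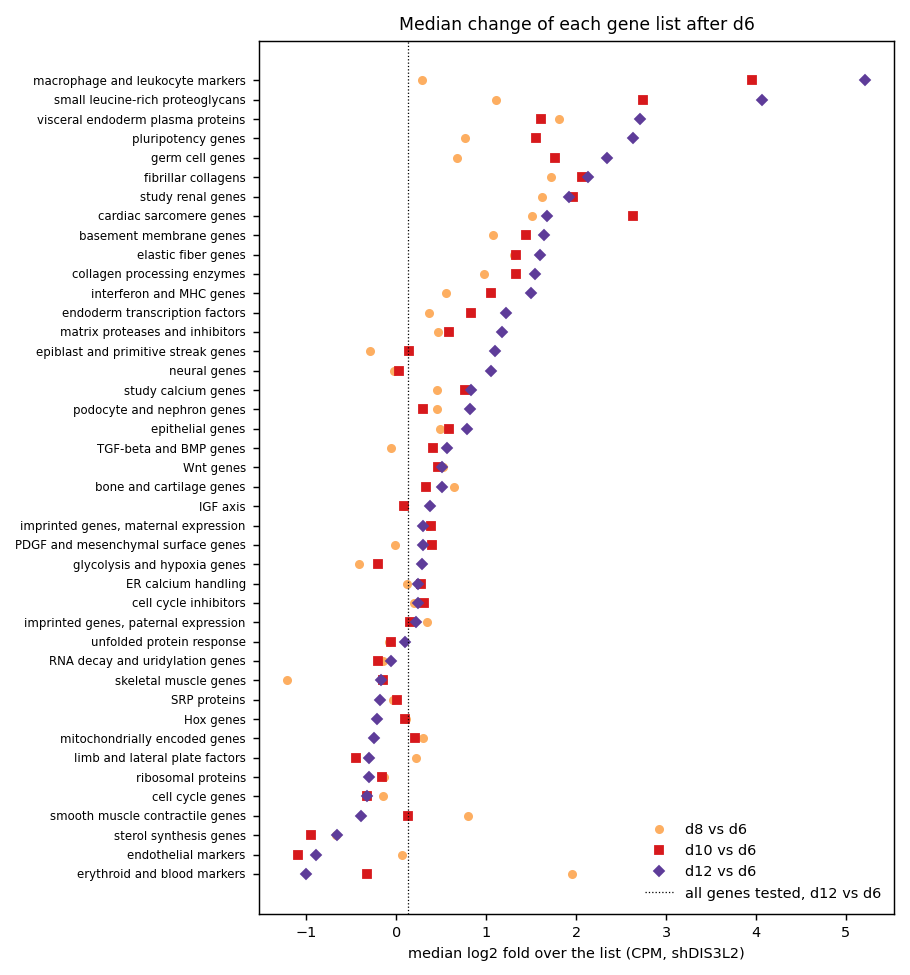
Median log2 fold (horizontal axis) of each of the 42 gene lists (vertical axis) at d8 (circles), d10 (squares) and d12 (diamonds) against d6 in shDIS3L2, with a count of 0 set to 3 reads, and the median over all genes tested at d12 as a dotted line at 0.14. The macrophage list stands farthest right at d12, at 5.22, the blood list is at 1.95 at d8 and -1.01 at d12, and the pluripotency list shifts right from day to day.

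Whether a trend differed between the lines was tested with the interaction of line and day over the 8 libraries of d6 to d12. Of 17164 genes, none had a higher slope in shDIS3L2 (0%) and none a lower one (0%) at an adjusted p under 0.05 in edgeR, and 1360 had an unadjusted p under 0.05 (7.92%). DESeq2 called 84 higher and 39 lower slopes, and edgeR with each day as a block called 146 and 64. By the first of these tests no gene is shown to have a trend that differs from shLacZ. In the pluripotency list, 15 of 24 genes had a higher slope in shDIS3L2 at an unadjusted p under 0.05 and 0 a lower one, and the block fit called 9. The difference of the fitted change, shDIS3L2 minus shLacZ, was 2.93 (SE 0.35, adjusted p = 0.171) for Nanog, 3.16 (SE 0.35, adjusted p = 0.171) for Zfp42 and 3.20 (SE 0.73, adjusted p = 0.354) for Esrrb. With the day as a block their adjusted p was 0.0133, 0.0192 and 0.0198. For the basement membrane genes the differences were small, at 0.34 (SE 0.22, adjusted p = 0.794) for Col4a1 and -0.30 (SE 0.28, adjusted p = 0.886) for Lamc1. Csf1r had a difference of 3.46 (SE 0.58, adjusted p = 0.288), and with the block an adjusted p of 0.0192. Among the falling genes, the difference was -3.91 (SE 0.84, adjusted p = 0.354) for Tdo2 and -2.41 (SE 0.94, adjusted p = 0.59) for Hand1, with an adjusted p of 0.0242 and 0.252 under the block.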

How the data were processed

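RNA sequencing of whole EBs was made from polyA RNA, with 1 library per line and day, and the 4 shDIS3L2 libraries of d6 to d12 were analysed, with the 4 of shLacZ for comparison. Reads were aligned to GRCm38 with Subread by the authors, who summed them over Ensembl genes with featureCounts and deposited raw counts. A second deposited table of CPM, made by the authors with edgeR, was used only for gene names and types, and the gene lengths deposited with the counts were not used for any value. CPM here was computed from the raw counts and library totals.

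Trends were fitted in R 4.3.3 with the quasi-likelihood test of edgeR 4.0.16 (TMM scaling, filterByExpr, day as a number, Benjamini-Hochberg over all genes tested), and the interaction of line and day was fitted over 8 libraries. The steps were tested on simulated data. Alternatives were DESeq2 1.42.0, other scalings, other filters, left-out libraries, a fit over both lines and the day as a block. Counts of 0 were set to 3 reads in list medians, and genes with at most 3 reads in both libraries were left out of them.

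Named genes are Dis3l2, the 12 largest rises and falls that passed the test, went one way at every step and reached 10 CPM, in each of 42 gene lists the 3 of highest mean CPM and the 2 of steepest slope, and the 5 highest peaks and deepest dips, not all of which are printed, and some of which are not reported here. Other list members, most of them past the test, were named after their values were seen. The members, lists and rules were chosen with earlier results of these data known. Promoters are RefSeq's for GRCm38.p6.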

Additional observations from a re-analysis of the deposited data

How the results depend on the processing

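The trend gave 253 and 97 rising and falling genes in edgeR. DESeq2 gave 1326 and 761, the fit of the 8 libraries of both lines 1405 and 806 and the test without a filter 910 and 429. With 1 library left out, which leaves 1 residual degree of freedom, rises ranged from 0 to 705 and falls from 0 to 423, with none without d10 or d12. Among the genes named in the text, 27 more passed in DESeq2, 24 more in the fit of both lines, 27 more without a filter, 26 more without d6 and 1 more without d8 and without TMM each, while 44 lost their call without d8, 3 without d6, 3 in the fit of both lines (Cdh2, Grb10 and Tgfb2), 7 with a filter of at least 1 CPM in 2 libraries and 2 without TMM. The slopes of Fgf3 and Dpysl4, genes with a low point inside the series, turned positive and passed the test without d6, their fitted change with 1 library left out ranging from -5.32 to 3.52 and from -1.84 to 2.78, and no other gene named in the text with a call in either fit did so.

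The difference of the trends gave no call in edgeR, and 84 and 39 higher and lower slopes in DESeq2 and 11 and 3 without a filter. With the day as a block, a pairing of the libraries of both lines by day that the labels give through the day and not through replicate numbers, there were 146 and 64. Leaving out each day in turn gave none.

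Counts of at least 3-fold differences depend on the minimum level. Without a minimum CPM, 2419 and 733 genes were higher and lower at d8, 3471 and 739 at d10 and 3660 and 762 at d12 than at d6. With at least 5 CPM the numbers were 460 and 95, 829 and 172 and 1094 and 175, for the step d8 to d10 151 and 41 and for d10 to d12 66 and 16, and 735 genes were higher at every step and at least 3-fold. Genes lower at every step numbered 1861 with TMM and 1783 with DESeq2 size factors. With 1 library per day, no depth replaces a replicate.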

Other observations

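Besides protein-coding genes, 8 genes of other types passed the trend test of edgeR, 2 that rose and 6 that fell, named here after their values were seen. Of the 8, 5 are processed pseudogenes, whose reads may belong to their parent genes. The lincRNA Gm45889 (chromosome 7, 142283210 to 142290418 of GRCm38) was at 50.99, 13.1, 7.29 and 4.78 CPM at d6, d8, d10 and d12 (fitted change -3.55, SE 0.45, adjusted p = 0.0446), and at 56.9, 21.8, 8.96 and 13.6 CPM in shLacZ. Haglr (chromosome 2, 74748422 to 74762896 of GRCm38), annotated as a long non-coding RNA with a bidirectional promoter, was at 6.6, 2.24, 0.758 and 0.187 CPM (fitted change -4.96, SE 0.48, adjusted p = 0.0359). The antisense RNA Gm10824 rose, at 0.66, 2.29, 3.69 and 8.43 CPM (fitted change 3.22, SE 0.47, adjusted p = 0.0499), and since the counting is not stated to use strand, its reads and those of the gene opposite cannot be told apart. The pseudogene Krt8-ps fell with Krt8 (fitted change -1.53, SE 0.20, adjusted p = 0.0472).

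Some protein-coding genes had their low point in the middle of the series. Of those with the deepest dip among genes that reached 10 CPM, 4 are given here. Spp1, the osteopontin gene, was at 40.9, 9.16, 50.9 and 166 CPM at d6, d8, d10 and d12, and its d12 level was 4.06-fold (95% interval 3.65 to 4.52) that of d6. Fgf3, a fibroblast growth factor gene, was at 35.1, 1.68, 3.36 and 8.99 CPM and Cfc1, a co-receptor gene of Nodal signaling, at 13.3, 1.63, 0.237 and 1.31 CPM. Dpysl4 was at 14.4, 3.36, 6.39 and 12.9 CPM. In shLacZ the lowest of the 4 days was d8 for Fgf3, Cfc1 and Dpysl4 and d10 for Spp1. None of the 4 passed the straight-line trend test of edgeR, whose adjusted p lay between 0.146 and 0.919, and 1, Cfc1, had an unadjusted p under 0.05.

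Serpina6, the gene of the corticosteroid-binding globulin of liver, went with Alb in its late step, with 1 read at d6 and 5.81 CPM at d12, against 0.298 CPM in shLacZ at d12. It was named after its values were seen and was not tested for a trend.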
